A study of Mus musculus with 32 samples.

Results

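The genes described are those of the platelet-derived growth factors and their receptors, namely the ligands *Pdgfa*, *Pdgfb*, *Pdgfc* and *Pdgfd* and the receptors *Pdgfra* and *Pdgfrb*. They were found on the array by their gene names, and all 6, of 34821 gene names on the array, were measured, on 8 of the 55681 probes. *Pdgfa* and *Pdgfb* had 2 probes each and the other genes 1 each. The probes of *Pdgfa*, *Pdgfc*, *Pdgfra* and *Pdgfrb* were well above background in all 32 samples, those of *Pdgfb* in 28 and 23, and that of *Pdgfd* in 9. Every probe is reported, and where a gene had 2, the probe with the higher variance over all samples is given first. The study compared liver cells of male Balb/c mice of 6 to 8 weeks whose spleen had received an inoculum of C26 cells, a mouse colon carcinoma line of the same strain, with those of mice given PBS. Cells of the tumor-bearing livers, isolated after 14 days by the methods and 15 by a legend, form the tumor microenvironment (TME) groups. Endothelial cells, Ito cells and Kupffer cells each gave a control and a TME group, and the tumor gave primary colorectal cells (TP) and liver metastasis cells (TM), with 4 samples in each of the 8 groups. The liver cells were separated on Percoll gradients or by adherence, kept in culture and used within 24 h, so that their levels are those of cultured cells. The tumor cells come from a single cell line.

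A PDGF ligand is a dimer that is cut by proteases before it can bind, and it joins a pair of receptor tyrosine kinases on the target cell. PDGF-A and PDGF-C act mainly through the alpha receptor, PDGF-B through both receptors, and PDGF-D mainly through the beta receptor. In the liver, the Ito cells, also called stellate cells, are the best known target. Their beta receptor increases as they turn into myofibroblasts, and PDGF-B, made by endothelial cells, macrophages and platelets, is a strong mitogen for them.

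The *Pdgfa* probes lie at chr5:139452934-139452993 and chr5:139452925-139452984 of mm9, on the minus strand, and the *Pdgfb* probes at chr15:79826376-79826435 and chr15:79827438-79827497, also on the minus strand. All lie within the transcript of their gene, and the files do not say whether in its coding part. The first 30 of the 60 bases of each are shown, 5′ to 3′, because how far these pairs count as separate measurements depends on them. Capitals mark what the *Pdgfa* probes share.
Pdgfa: actgtagcaCTCAGAGAGACAGTGAGAAAG
Pdgfa second probe: CTCAGAGAGACAGTGAGAAAGCTTCCTTGT
Pdgfb: gttccttctgcttccttcagtttgtaaagt
Pdgfb second probe: actccaggctgcaggcttctcttgactcca
The *Pdgfa* probes start 9 bases apart and have 51 bases in common, and each is a single spot, so they are not separate measurements of the gene. The *Pdgfb* probes start 1062 bases apart and share none. The probe of *Pdgfc* lies at chr3:81017572-81017631, that of *Pdgfd* at chr9:6376926-6376985 and that of *Pdgfra* at chr5:75593888-75593947, all on the plus strand of mm9.

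Promoters of 4 of the 6 genes were read from the RefSeq promoter table, on the build GRCm38.p6, and that of *Pdgfrb* was not looked up. Those of *Pdgfa* are shown because it was the only member called between TME and control cells. The table lists a pair of start sites for this gene, each with 250 bases before and 50 after the start. Both strands were searched for 3 motifs. These were GGGCGG, known as the core of a GC box, then TATAAA, known as a TATA box, and the CCAAT box. Only the first was found in the *Pdgfa* promoters, and capitals mark it, in reverse complement where it lies on the other strand.
Pdgfa, downstream start, chr5:138994232-138994531, minus strand: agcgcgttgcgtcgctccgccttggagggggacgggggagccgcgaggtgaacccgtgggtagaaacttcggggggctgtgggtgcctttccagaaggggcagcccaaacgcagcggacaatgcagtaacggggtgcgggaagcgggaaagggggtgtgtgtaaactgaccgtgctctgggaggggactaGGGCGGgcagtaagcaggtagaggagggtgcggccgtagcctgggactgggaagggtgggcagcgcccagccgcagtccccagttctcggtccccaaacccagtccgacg
Pdgfa, upstream start, chr5:138994895-138995194, minus strand: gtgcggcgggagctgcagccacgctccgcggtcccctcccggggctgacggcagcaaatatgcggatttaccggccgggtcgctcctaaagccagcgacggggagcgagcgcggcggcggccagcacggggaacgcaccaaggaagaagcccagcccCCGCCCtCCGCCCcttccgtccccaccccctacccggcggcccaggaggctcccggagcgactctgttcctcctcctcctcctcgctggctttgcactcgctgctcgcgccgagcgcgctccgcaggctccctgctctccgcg
The downstream stretch held 1 GC box core and the upstream 2, and their GC contents were 67.0 and 73.3%. Of the 32851 promoters of the table, 35.7% held the GC box core, 13.6% the TATA box and 37.4% the CCAAT box. The promoters of *Pdgfc* and *Pdgfra* held none of the 3 motifs, and that of *Pdgfd* held a single TATA box.

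The levels are log2 intensities of 32 channels on 16 arrays that carried 2 samples each. Between 38.4 and 57.1% of the spots of a channel were well above background and 0 were saturated, and the 4 samples per group limit the precision. Every array paired a Cy3 sample (control or TM) with a Cy5 sample (TME or TP) and no dyes were swapped, so that dye and condition cannot be told apart. Slide 1 held the endothelial and Ito cells while Kupffer and tumor cells shared slide 2, so that slide and cell type cannot be told apart where cells of different slides are compared. The labels were checked against marker genes. Of the endothelial markers, 7 of 8 had their highest mean level among the liver cells in endothelial cells, and all 9 measured Kupffer markers had theirs in Kupffer cells. Of the 11 Ito markers, only *Lrat*, *Gfap* and *Rgs5* were highest in the Ito cells and the other 8 were highest in endothelial cells. *Lrat*, the enzyme that stores retinol in stellate cells, was well above background in 6 of 24 liver channels and *Gfap* in 7, and *Des* had a mean of 6.15 in Ito and 7.41 in endothelial cells. All 5 hepatocyte markers were highest in the Ito cells, albumin at 16.10 on the log2 scale. The mean over the hepatocyte list was 12.53 to 13.99 in Ito channels and 9.47 to 11.06 in endothelial channels. The Ito samples thus did not carry the stellate cell list at its highest level, and they are called Ito cells below only as the labels do. In bulk RNA, fewer cells of a type and less RNA per cell cannot be told apart. In the tumor cells the same endothelial list lay between 2.81 and 3.53.

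**Figure D1:**
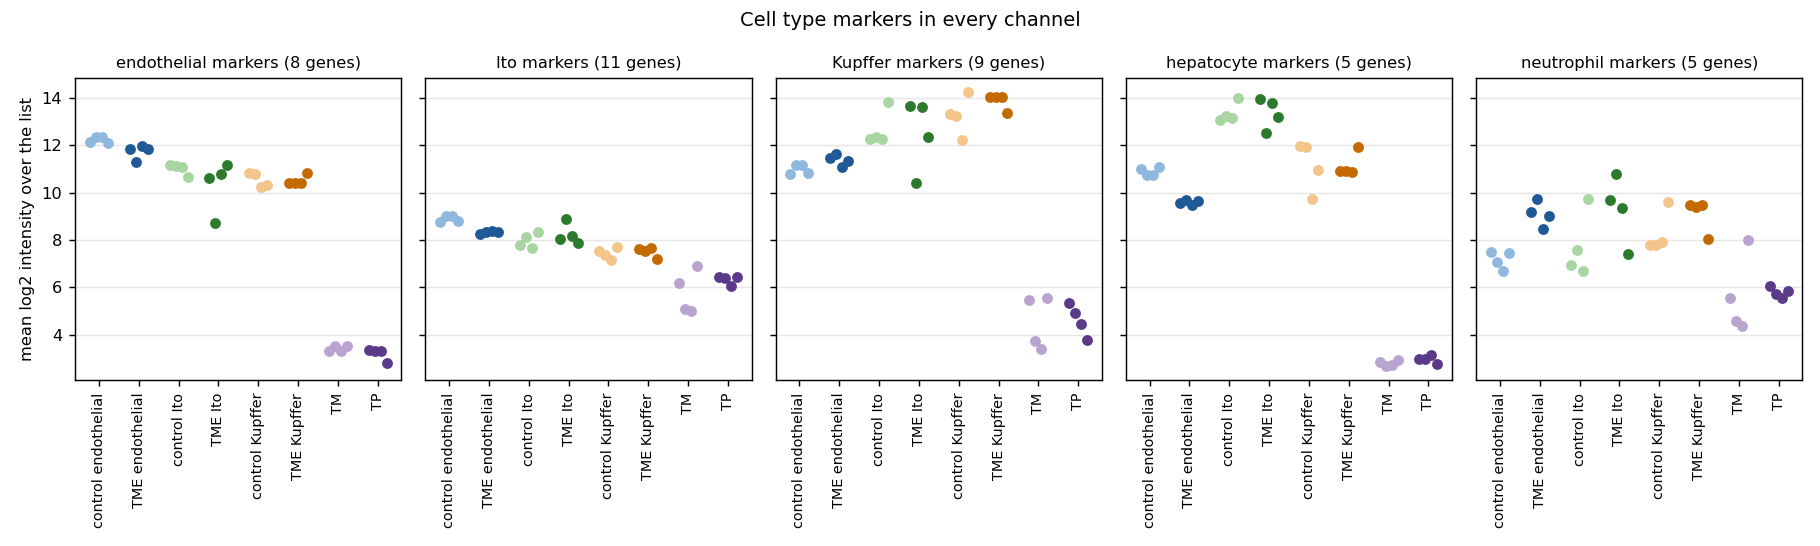
Each point is the mean log2 intensity of a channel over a list of marker genes (panels), with 4 channels in each of the 8 groups along the horizontal axis. Kupffer markers are high in Kupffer cells, Ito markers lie at 8.75 to 9.03 in control endothelial cells, a range that only TME Ito replicate 2 (8.88) reaches, and replicate 4 of the Ito and Kupffer cells carries its higher neutrophil level in the control channel.

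Replicate 4 of the Ito and of the Kupffer cells ran against the other arrays of its cell type. Over the 17105 probes that every channel showed well above background, the difference of TME and control on that array correlated with the mean of the other 3 arrays at r = -0.66 in Ito cells and at r = -0.60 in Kupffer cells, while the other arrays of these cells gave 0.19 to 0.47. The 5 neutrophil markers had a mean of 9.74 in control and 7.39 in TME Ito replicate 4, against 6.70 to 7.58 in the other controls and 9.33 to 10.80 in the other TME channels. Kupffer replicate 4 had 9.61 in the control and 8.02 in the TME channel, against 7.77 to 7.90 and 9.38 to 9.48. TME Ito replicate 2 also stood apart, with the lowest correlation to its own group among the liver cells (0.951) and an endothelial marker mean of 8.70. These are the 5 channels left out below where values without 5 channels are given, namely both channels of replicate 4 of Ito and Kupffer cells and TME Ito replicate 2. The labels were kept, and values without these channels are given where a result turns on them.

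In endothelial cells *Pdgfa* was higher with the TME, and it was the only member gene that passed the test between TME and control in any liver cell type. It encodes the A chain, a ligand of the alpha receptor. Its log2 level in control endothelial cells was 14.43, 14.35, 14.31 and 14.42 in replicates 1 to 4. In TME endothelial cells it was 15.86, 15.26, 15.68 and 15.63. The groups did not overlap, and each TME sample exceeded the control of its array by 0.91 to 1.42. How many of all probes had groups that did not overlap was not counted, here or below. The difference was 1.23 ± 0.25 on the log2 scale (SE), or 2.34-fold, with an adjusted p of 0.00936 (limma, Benjamini-Hochberg over all probes). The overlapping probe gave 1.26 ± 0.25 and an adjusted p of 0.00697. Of all probes, 1.14% were called in this comparison, and 2 of the 8 member probes, those of this gene. At an unadjusted p under 0.05 the count was 5 of 8, where 7.71% of all probes passed. By the methods' t-test it was 3, and the share of all probes by that test was not counted, here or below. With the array as a replicate block the *Pdgfa* difference stayed 1.23 and its adjusted p became 0.0703. The adjusted p was 0.130 without replicate 1, 0.0602 without replicate 3 and 0.109 without replicate 4. Other cells' markers moved alongside. The mean over the neutrophil list was 6.70 to 7.47 in control and 8.46 to 9.71 in TME endothelial channels, although 0 of its 5 genes passed the test (lowest adjusted p 0.0590, *S100a8*). The mean over the hepatocyte list was 10.73 to 11.06 in control and 9.47 to 9.70 in TME channels, and 2 of its 5 genes were lower, *Cyp2e1* by -2.72 and *Ttr* by -1.88. The mean over the Kupffer list was 10.80 to 11.16 in control and 11.09 to 11.62 in TME channels. Over the platelet list it was 6.09 to 6.32 and 6.40 to 7.16, and 0 genes of either list passed the test. The part of these lists in the *Pdgfa* difference was not tested.

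*Pdgfb*, whose B chain binds both receptors, did not pass the test in endothelial cells. It was at 9.08, 9.96, 9.64 and 8.94 in control and at 10.14, 11.31, 10.36 and 10.19 in TME endothelial cells. All TME samples lay above all controls, the difference was 1.09 ± 0.40, and the adjusted p was 0.307. The distant probe gave 1.17 ± 0.45 with an adjusted p of 0.357. With normexp background correction, which estimates the background from the whole array, both probes passed, with adjusted p of 0.0195 and 0.0297 after quantile scaling and of 0.00796 and 0.00195 after loess and Aquantile scaling. *Pdgfc*, a ligand that needs a protease to remove its CUB domain, was at 7.79, 8.25, 8.35 and 7.76 in control and at 8.96, 8.79, 8.55 and 8.88 in TME endothelial cells. Again the groups did not overlap, with a difference of 0.76 ± 0.52 and an adjusted p of 0.974 in the fit over all groups. With only the endothelial samples in the fit the adjusted p of *Pdgfc* was 0.0449, and by the methods' t-test it was 0.086. *Pdgfd*, the other ligand with a CUB domain, was well above background in 2 of 4 channels of each endothelial group and in 5 of the 24 liver channels in all, and its difference of 0.99 ± 0.68 rests largely on replicate 2, at 4.82 and 6.93. The marker lists given for *Pdgfa* moved alongside here too, and their part in the differences of *Pdgfb*, *Pdgfc* and *Pdgfd* was not tested.

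*Pdgfra*, the alpha receptor, was at 9.61, 10.13, 10.13 and 9.60 in control and at 8.49, 8.94, 8.38 and 8.44 in TME endothelial cells. Every TME sample lay below every control, by 1.12 to 1.75 within arrays. The difference of -1.31 ± 0.57 had an adjusted p of 0.507 in the fit over all groups, whose spread for this probe includes the scattered tumor and Ito samples. With only the endothelial samples in the fit the adjusted p was 0.00842, and by the methods' t-test it was 0.0246. Marker lists moved alongside, with the Ito list at 8.75 to 9.03 in control and 8.27 to 8.37 in TME channels and the endothelial list at 12.09 to 12.36 and 11.31 to 11.97, and their part in the *Pdgfra* difference was not tested. *Pdgfrb*, the beta receptor, was at 9.25, 9.92, 9.92 and 9.32 in control and at 9.40, 9.22, 9.57 and 9.44 in TME endothelial cells, which overlap. Its difference was -0.19 ± 0.41, with a 95% interval from -1.04 to 0.65.

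**Figure D2:**
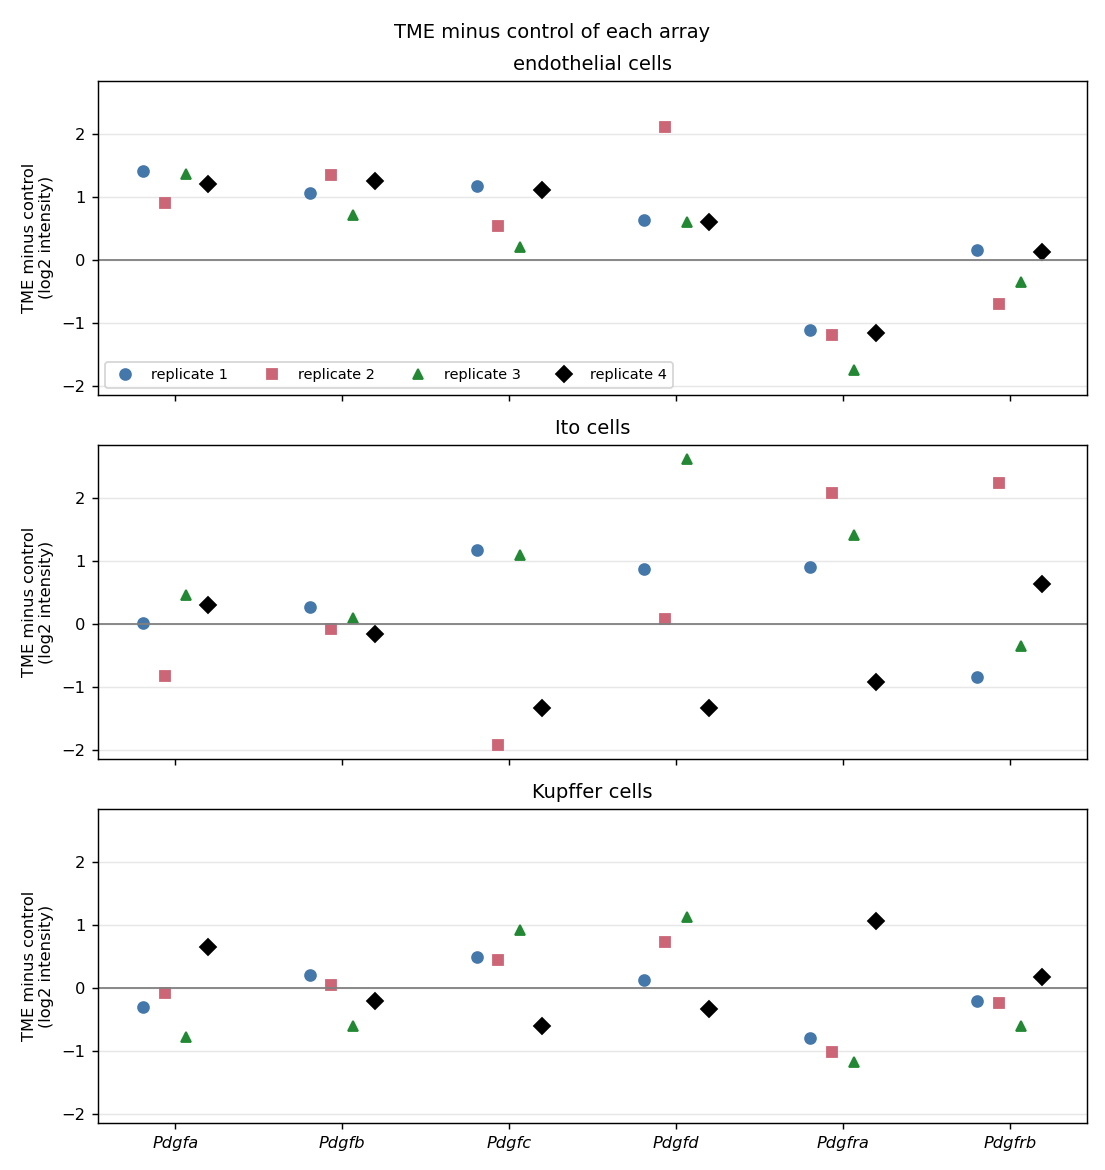
Each point is the TME minus control difference in log2 intensity of the 2 samples of an array, for the first probe of each gene (horizontal axis) and each liver cell type (panels). In endothelial cells all 4 arrays lie above 0 for Pdgfa, Pdgfb, Pdgfc and Pdgfd and below 0 for Pdgfra. Replicate 4 of Ito and Kupffer cells often lies on the other side of 0 from replicates 1 and 3.

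In Ito cells no member probe differed between TME and control. The count was 0 of 8 by limma, where 0.289% of all probes were called. At an unadjusted p under 0.05 it was 0, where 9.88% of all probes passed, and by the methods' t-test it was 0. *Pdgfra* was at 6.88, 6.99, 6.58 and 7.83 in control and at 7.79, 9.08, 7.99 and 6.91 in TME Ito cells. The TME channel was higher on arrays 1 to 3, by 0.91 to 2.09, and lower on array 4, by 0.92. Without replicate 4 the difference was 1.47 ± 0.48 in place of 0.87 ± 0.57, with an adjusted p of 0.0722, while 7.83% of all probes were then called. Without the 5 channels it was 1.08 ± 0.69 with an adjusted p of 0.427. *Pdgfc* was at 9.89, 9.88, 9.92 and 11.18 in control and at 11.07, 7.96, 11.01 and 9.84 in TME Ito cells. Replicates 1 and 3 were higher in the TME by 1.18 and 1.09, and replicates 2 and 4 were lower, and the mean difference was -0.25 ± 0.52. Without the 5 channels it was 1.14 ± 0.47, with an adjusted p of 0.152, so that the sign rests on those channels. *Pdgfrb* was at 8.62, 8.75, 8.64 and 8.06 in control and at 7.78, 11.00, 8.28 and 8.70 in TME Ito cells. The single high value is that of TME Ito replicate 2, and without the 5 channels that stand apart the difference was -0.64 ± 0.31 in place of 0.43 ± 0.41, with an adjusted p of 0.244. *Pdgfa* and *Pdgfb* differed by -0.01 ± 0.25 and 0.03 ± 0.40, and the 95% interval of *Pdgfa* ran from -0.53 to 0.51. *Pdgfd* was above background in 1 control and 0 TME Ito channels.

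In Kupffer cells the count was again 0 of 8 by limma, where 0.436% of all probes were called. At an unadjusted p under 0.05 it was 0, where 7.37% of all probes passed, and by the methods' t-test it was 0. *Pdgfra* was at 8.39, 8.47, 8.64 and 7.58 in control and at 7.60, 7.45, 7.46 and 8.64 in TME Kupffer cells. The first 3 arrays gave differences of -0.79 to -1.18 and array 4 gave 1.06. Without replicate 4 the difference was -1 ± 0.48 with an adjusted p of 0.329, where 3.45% of all probes were called. *Pdgfc* showed the opposite order, with 10.83, 10.88, 10.56 and 11.49 in control and 11.31, 11.32, 11.48 and 10.88 in TME cells. *Pdgfa* lay between 14.74 and 15.90 in control and between 14.95 and 15.40 in TME cells, and *Pdgfb* between 11.71 and 12.18 and between 11.58 and 11.91. The 95% interval of their differences ran from -0.65 to 0.39 for *Pdgfa* and from -0.95 to 0.68 for *Pdgfb*.

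Whether the change with the TME differed between cell types was tested as a contrast of these differences. Between Ito and endothelial cells 0 of 8 member probes were called by limma (0.111% of all probes) and 3 passed an unadjusted p under 0.05 (4.45% of all probes). *Pdgfa* had a difference of -1.24 ± 0.36 there, with an adjusted p of 0.328. Between Kupffer and endothelial cells the counts were again 0 and 3 (0.0808 and 3.88% of all probes), and *Pdgfa* gave -1.36 ± 0.36 with an adjusted p of 0.296. Without the 5 channels that stand apart, this difference was -1.62 ± 0.33 with an adjusted p of 0.0187, and -1.69 ± 0.33 with 0.0109 for the overlapping probe. Without replicate 4 of all groups it was -1.62 ± 0.45 with an adjusted p of 0.214. Between Kupffer and Ito cells the counts were 0 and 0 (0.00359 and 4.13% of all probes). The rise of *Pdgfa* in endothelial cells was therefore not shown to be particular to them with all channels in the fit.

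**Figure D3:**
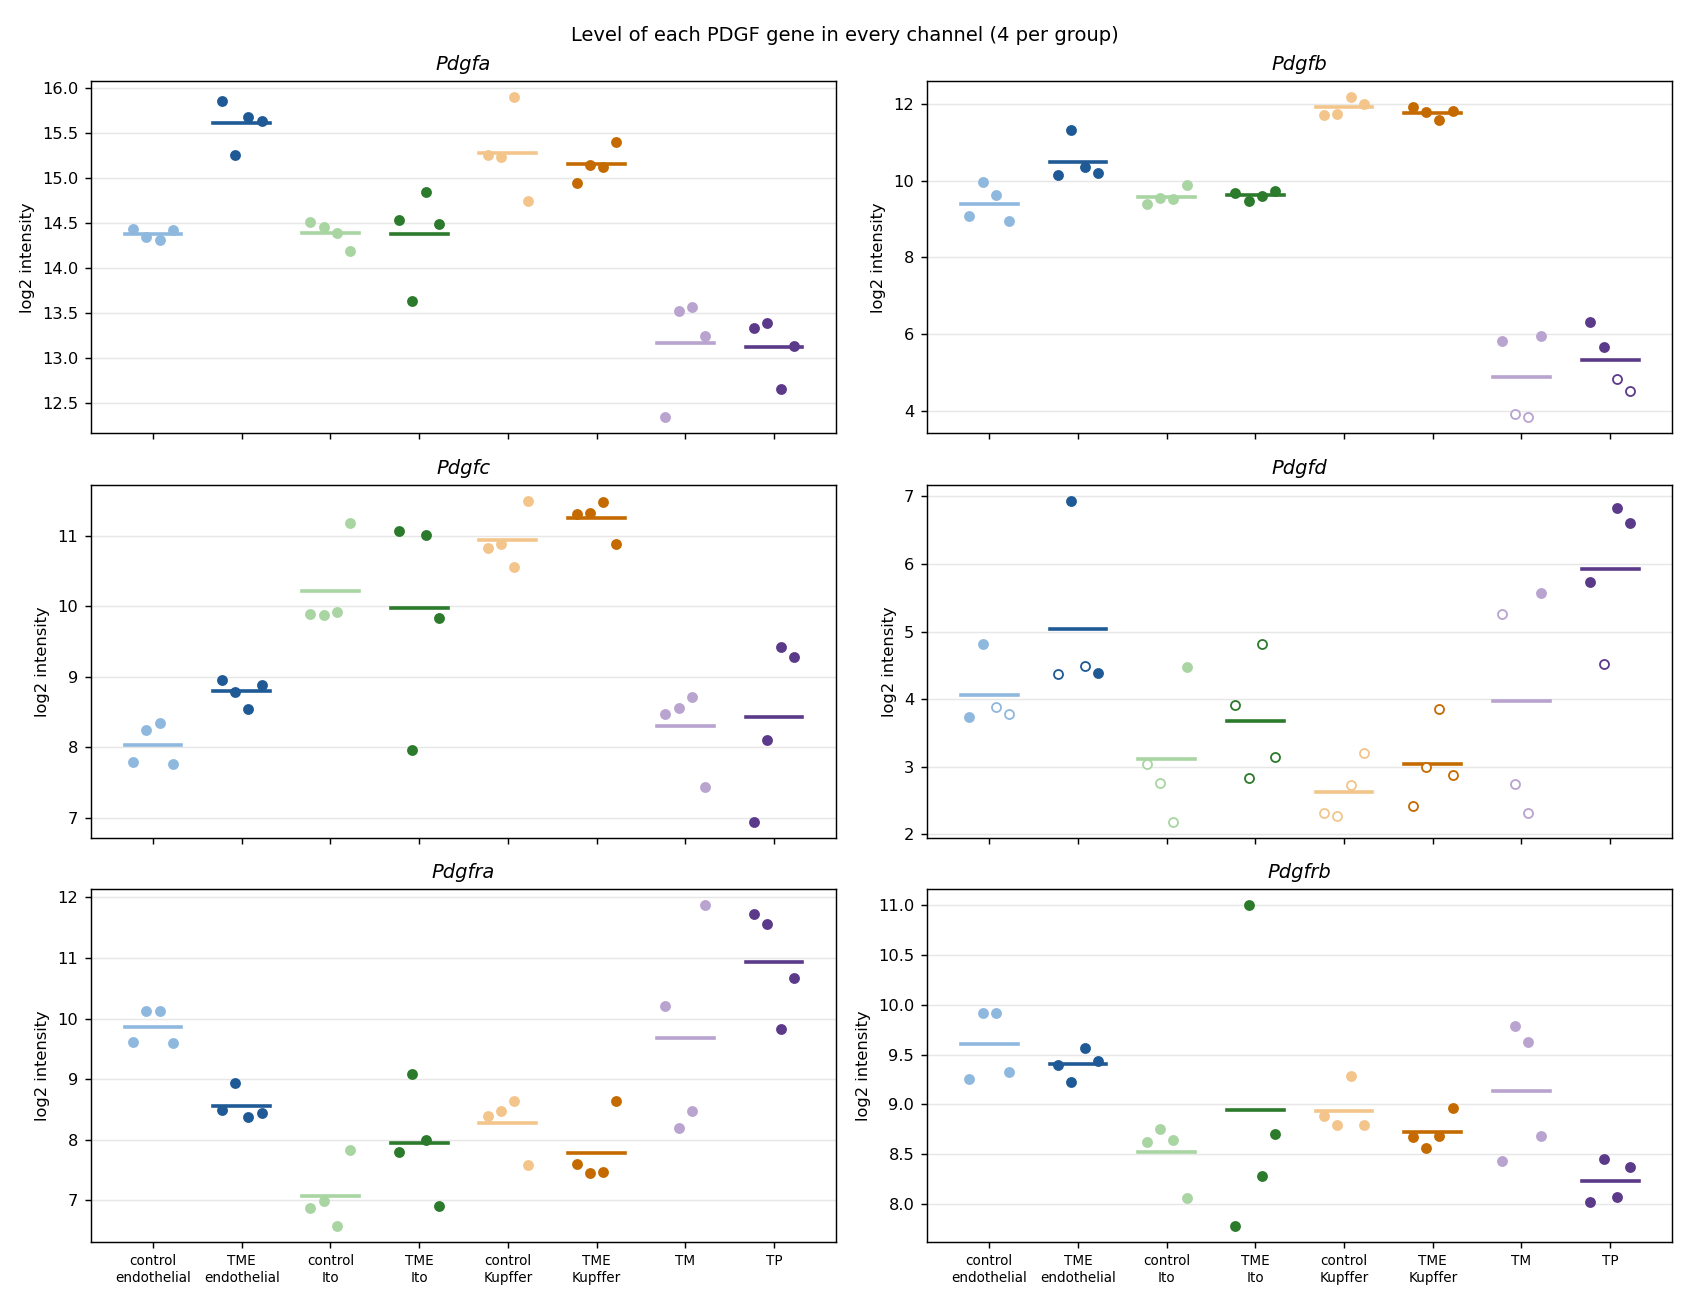
Each point is the log2 intensity of the first probe of a gene (panels) in a channel, with 4 channels in each of the 8 groups, a bar at the group mean, and an open circle where the spot was not well above background. Pdgfb is highest in Kupffer cells (11.58 to 12.18) and lowest in tumor cells (3.83 to 6.32), Pdgfra is below 7 in 3 of 4 control Ito channels and 1 TME Ito channel, and most Pdgfd points are open.

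More member probes were called between liver cell types than between TME and control, and so were more of all probes (18.1 to 32.0% against 0.289 to 1.14%). Cell types were compared on the mean of control and TME cells, so that both dyes enter equally. *Pdgfb* had its highest level in Kupffer cells, with group means of 11.91 ± 0.23 and 11.77 ± 0.14 (SD, n = 4) in control and TME. TME endothelial cells followed at 10.50 ± 0.55, and then TME Ito at 9.62 ± 0.12, control Ito at 9.59 ± 0.21 and control endothelial cells at 9.41 ± 0.48, which do not differ beyond their spread. Kupffer cells exceeded Ito cells by 2.24 ± 0.28 on the log2 scale, 4.72-fold, with an adjusted p of 8.93e-07, and endothelial cells by 1.89 ± 0.28, 3.70-fold, with 5.74e-06. All 8 Kupffer samples lay above all 16 endothelial and Ito samples. The distant probe gave 2.14 ± 0.32 and 1.48 ± 0.32, with adjusted p of 9.14e-06 and 0.000499. Ito and endothelial cells differed by -0.35 ± 0.28 (adjusted p 0.448). Within a dye, Ito minus Kupffer was -2.32 ± 0.40 in the controls and -2.15 ± 0.40 in the TME cells.

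*Pdgfc* was lowest in endothelial cells, at 8.04 ± 0.31 in control and 8.80 ± 0.18 in TME. Its means were 10.22 ± 0.64 and 9.97 ± 1.45 in control and TME Ito cells and 10.94 ± 0.39 and 11.25 ± 0.25 in Kupffer cells. Kupffer cells exceeded endothelial cells by 2.68 ± 0.37, 6.39-fold, with an adjusted p of 1.60e-06 and no overlap. Ito cells exceeded endothelial cells by 1.68 ± 0.37, 3.20-fold, with an adjusted p of 0.00143, and by 2.05 ± 0.30 without the 5 channels. Only TME Ito replicate 2, at 7.96, fell within the endothelial range. Between the controls the difference was 2.18 ± 0.52 (adjusted p 0.00597) and between the TME groups 1.17 ± 0.52 (0.186). The Kupffer marker list moved alongside, with 5 of its 9 genes called higher in Ito than in endothelial cells. Its mean was 10.80 to 11.62 in endothelial channels, 10.41 in TME Ito replicate 2, 12.27 to 12.35 in the Ito channels with *Pdgfc* at 9.84 to 9.92, and 13.63 to 13.82 in those with *Pdgfc* at 11.01 to 11.18. Its part in the *Pdgfc* level was not tested. Ito cells lay below Kupffer cells by -1 ± 0.37 on the log2 scale with an adjusted p of 0.0458, which was 0.204 without the 5 channels and 0.0608 with the replicate block.

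*Pdgfa* in endothelial cells had a mean of 14.38 ± 0.06 in control and 15.61 ± 0.25 in TME. Ito cells had 14.39 ± 0.14 and 14.37 ± 0.52, and Kupffer cells 15.28 ± 0.47 and 15.16 ± 0.19. TME endothelial cells thus lay in the range of Kupffer cells, while control endothelial cells lay in that of Ito cells. Ito cells were lower than Kupffer cells by -0.84 ± 0.18 (adjusted p 0.000792) and lower than endothelial cells by -0.61 ± 0.18 (adjusted p 0.0164). Between the TME groups the latter difference was -1.23 ± 0.25 (adjusted p 0.00212) and between the controls 0.01 ± 0.25 (0.999). Over both it had an adjusted p of 0.0945 without replicate 4 and 0.105 without the 5 channels.

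*Pdgfra* was higher in endothelial than in Ito cells, the reverse of *Pdgfc*. Endothelial cells had means of 9.87 ± 0.30 and 8.56 ± 0.26 in control and TME, Kupffer cells 8.27 ± 0.47 and 7.79 ± 0.57, and Ito cells 7.07 ± 0.54 and 7.94 ± 0.89. Ito cells were lower than endothelial cells by -1.71 ± 0.40, 3.28-fold, with an adjusted p of 0.00281, and of 0.00160 without replicate 4. In the controls the difference was -2.80 ± 0.57, with an adjusted p of 0.00143, and all 4 Ito controls lay below all 4 endothelial controls. Between the TME groups it was -0.62 ± 0.57, with an adjusted p of 0.617. Endothelial cells exceeded Kupffer cells by 1.19 ± 0.40 (adjusted p 0.0232). The Ito marker list also had its highest values in endothelial channels, at 8.27 to 9.03, against 7.66 to 8.88 in Ito and 7.16 to 7.70 in Kupffer channels. Between Ito and Kupffer cells it went the other way from *Pdgfra*, whose means were 7.51 and 8.03 and were not called different. The part of the list in the *Pdgfra* level was not tested. *Pdgfrb*, the receptor known from activated stellate cells, was not highest in Ito cells either. Its means were 9.60 ± 0.37 and 9.41 ± 0.14 in endothelial, 8.52 ± 0.31 and 8.94 ± 1.42 in Ito and 8.93 ± 0.23 and 8.71 ± 0.17 in Kupffer cells. Ito minus endothelial was -0.78 ± 0.29 with an adjusted p of 0.0658. Without the 5 channels, TME Ito replicate 2 among them, it was -1.15 ± 0.20 with an adjusted p of 0.000140. Endothelial minus Kupffer was 0.68 ± 0.29 (adjusted p 0.0780), and 0.70 ± 0.18 (0.00450) without them.

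*Pdgfd* was not well above background in any Kupffer or TME Ito channel, so that only a bound can be given there. TME endothelial cells, with 2 of 4 channels measured, had a mean 1.41-fold above the floor of TME Kupffer cells and 1.30-fold above that of TME Ito cells. Control endothelial cells, also with 2 of 4 measured, gave 1.12-fold over control Kupffer cells. These means take in the channels not measured, and that of the TME rests largely on replicate 2, at 6.93 against 4.37 to 4.49 in the deposited values. The folds are therefore not strict lower limits for the group. The bound was taken on normexp-corrected values scaled by loess and Aquantile. It sets the mean of the higher group against the mean, over the arrays of the lower group, of the lowest signal well above background on the array, or of the probe's own signal where that was higher. On that scale the means were 6.77 in TME endothelial cells and 6.27 at the floor of TME Kupffer cells. The adjusted p of endothelial against Kupffer cells in the fit was 0.00660, with all Kupffer channels at background and on the other slide.

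In counts, 4 of 8 member probes were called between Ito and endothelial cells, 1 higher and 3 lower in Ito cells, where 18.1% of all probes were called. Between Ito and Kupffer cells 5 were called, all lower in Ito cells (25.1% of all probes). Between endothelial and Kupffer cells 5 were called, 2 higher and 3 lower in endothelial cells (32.0%). The first of these compares cells on the same slide, and the other 2 compare cells on different slides.

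**Figure D4:**
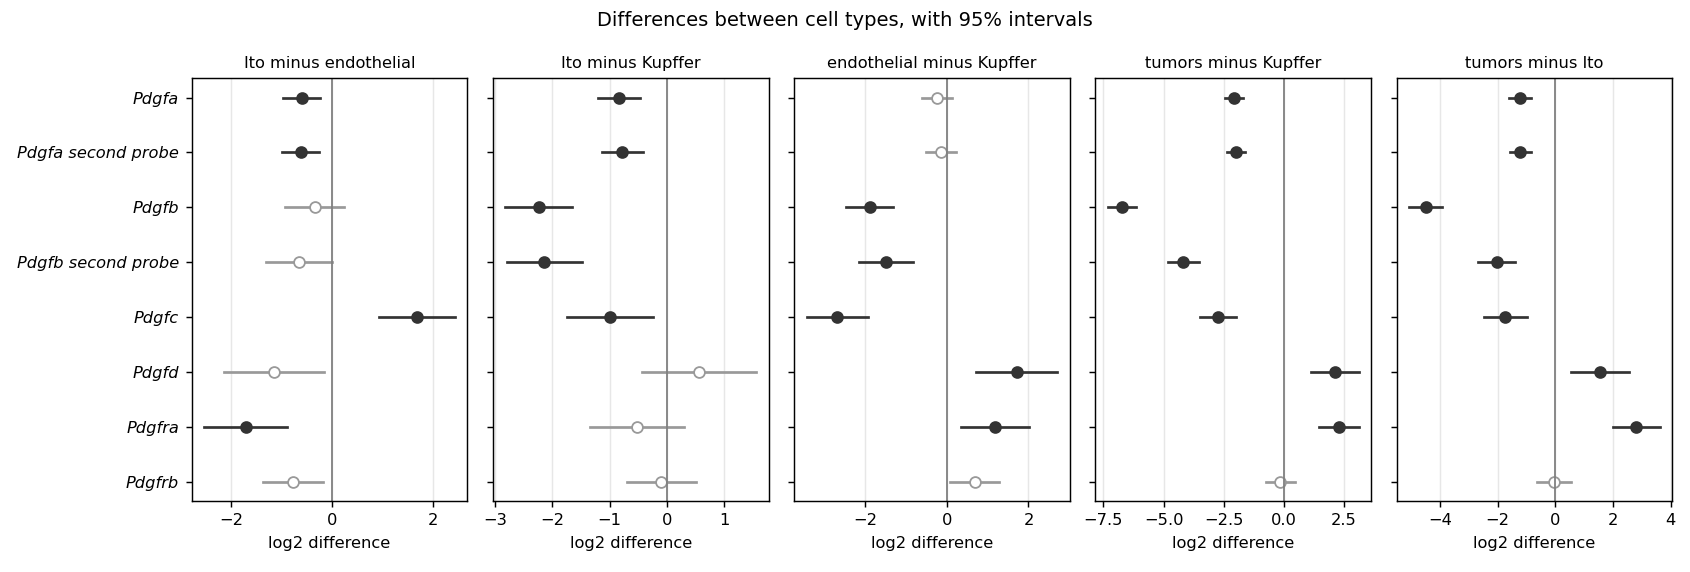
Each point is the fitted difference in log2 intensity of a member probe (vertical axis) between the cell types named above the panel, with its 95% interval, filled where the adjusted p was under 0.05. The horizontal scales differ between panels. Both Pdgfb probes lie below 0 in the comparisons of other cells with Kupffer cells and of tumor with Ito cells, and Pdgfra lies above 0 in tumor cells.

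In the tumor cells the ligands *Pdgfa*, *Pdgfb* and *Pdgfc* were lower and *Pdgfra* higher than in Kupffer and Ito cells. *Pdgfb* was at 5.82, 3.92, 3.83 and 5.95 in TM and at 6.32, 5.67, 4.84 and 4.52 in TP cells, and well above background in only 2 of 4 channels of each, so that the size of its difference is uncertain. All 8 values lay below the 11.58 to 12.18 of Kupffer cells, and the fit gave -6.73 ± 0.28 on the log2 scale with an adjusted p of 2.42e-17. Its distant probe was not well above background in any tumor channel, and Kupffer cells exceeded TM cells by at least 2.67-fold and TP cells by at least 2.80-fold on it. *Pdgfa* was lower than in Kupffer cells by -2.07 ± 0.18 (adjusted p 9.11e-11) and *Pdgfc* by -2.73 ± 0.37 (3.15e-07), with no overlap for either. Against Ito cells the same 3 ligands were lower, *Pdgfb* by a fitted -4.50 ± 0.28 under the same limit, *Pdgfc* by -1.73 ± 0.37 and *Pdgfa* by -1.23 ± 0.18, with adjusted p of 1.55e-13, 0.000243 and 1.42e-06.

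*Pdgfra* was higher in tumor cells, by 2.28 ± 0.40 against Kupffer cells (4.87-fold, adjusted p 1.99e-05) and by 2.81 ± 0.40 against Ito cells (7.01-fold, 1.02e-06). It was at 10.21, 8.19, 8.47 and 11.87 in TM and at 11.72, 11.56, 9.82 and 10.67 in TP cells. TM replicates 2 and 3 lay within the range of Kupffer cells, and the other tumor samples lay above it. Against endothelial cells of the same dye, across slides, TM minus control was -0.18 ± 0.57 (adjusted p 0.858) and TP minus TME was 2.38 ± 0.57 (0.00131). For *Pdgfc* the same differences were 0.26 ± 0.52 (0.765) and -0.36 ± 0.52 (0.637). *Pdgfd* was at 5.26, 2.74, 2.32 and 5.57 in TM and at 5.74, 4.52, 6.83 and 6.61 in TP cells. It was measured in 1 TM and 3 TP channels. The TP mean, which takes in a channel not measured, was 1.51-fold above the floor of TME Kupffer cells. The adjusted p of tumor against Kupffer cells in the fit was 0.000533, with all Kupffer channels at background. *Pdgfrb* was not called, with a difference of -0.14 ± 0.29 from Kupffer cells and a 95% interval from -0.74 to 0.45. In all, 7 of 8 probes were called against Kupffer cells, 2 higher and 5 lower, where 51.0% of all probes were called, and 7 against Ito cells, also 2 and 5, where 49.2% were called. The comparison with Kupffer cells is within a slide.

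Between primary and metastatic tumor cells 0 of 8 member probes were called by limma, where 3.01% of all probes were called, and 0 by the methods' t-test. At an unadjusted p under 0.05 the count was 3, where 16.4% of all probes passed. *Pdgfra* differed by 1.26 ± 0.57 (TP minus TM, adjusted p 0.258), and by 2.08 ± 0.48 (0.0266) without replicate 4. *Pdgfd* differed by 1.95 ± 0.68 (adjusted p 0.126). *Pdgfrb* was at 8.43, 9.79, 9.63 and 8.68 in TM and at 8.02, 8.45, 8.07 and 8.37 in TP cells, a difference of -0.91 ± 0.41 with an adjusted p of 0.263, and of 0.0386 when the 5 Ito and Kupffer channels were left out of the fit. In TM cells, replicates 1 and 4 were higher than replicates 2 and 3 for *Pdgfra*, *Pdgfd* and *Pdgfb* and lower for *Pdgfrb*, as seen once the values were known. The mean over the Ito marker list was 6.18 and 6.90 in replicates 1 and 4 and at 5.10 and 5.02 in replicates 2 and 3, and its part in these levels was not tested.

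The probes most like each member over the 24 liver channels were ranked by Pearson's r among 19009 candidates, as a description over channels that share arrays and cell types. For *Pdgfa* these were *Pgk1* (r = 0.85), a glycolytic enzyme, *C80012* (0.84) and *Bnip3* (0.83), a mitochondrial protein of the Bcl-2 group. For *Pdgfb* they were the prostaglandin E2 receptor *Ptger4* (0.96), *Igsf9* (0.93) and *Paqr4* (0.93), and for *Pdgfc* *Vrk2*, *Rnf144b* and the toll-like receptor *Tlr7* (0.98 each). *Pdgfra* was followed by *Tmem45a* (0.92), *Smagp* and the small heat shock protein *Hspb2* (0.91 each), and *Pdgfrb* by *Acbd6*, *Cactin* and *Aebp1* (0.95 each). *Pdgfd*, mostly at background, was followed by *Ndufb5* (0.89), *Shcbp1* and *Cbx3* (0.87 each). Among the members, *Pdgfa* and *Pdgfb* had r = 0.62, *Pdgfb* and *Pdgfc* 0.62, the 2 receptors 0.66, and *Pdgfc* had -0.64 with *Pdgfra* and -0.76 with *Pdgfrb*.

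Of 59 other genes of the pathway, 0 were called by limma between TME and control in each of the 3 liver cell types. At an unadjusted p under 0.05 the counts were 5, 5 and 2 in these cells (endothelial, Ito, Kupffer), where 7.71, 9.88 and 7.37% of all probes passed, and by the methods' t-test 5, 0 and 0. The median differences were -0.01, -0.13 and 0.02 on the log2 scale, against medians over all probes of 0.01, 0.00 and 0.00. Without replicate 4, 11 were called in Ito cells, where 7.83% of all probes were. Among them the early response genes *Egr1* (-3.07), *Fosb* (-1.90) and *Ier3* (-1.19) were lower in TME cells, as were *Plaur*, the urokinase receptor (-1.17), the co-receptor *Nrp2* (-1.63), the integrin chain *Itgav* (-0.88) and the inhibitors *Sh2b3* (-1.05) and *Cbl* (-0.63). *Pik3r2* (1.13), *Stat5b* (0.48) and *Lrp1*, which was well above background in only 3 of 8 Ito channels, were higher. Without the 5 channels 15 were called, where 9.73% of all probes were, and *Ier3*, *Cbl*, *Pik3r2* and *Stat5b* were no longer among them. Between TP and TM 2 were called, where 3.01% of all probes were. *Plau*, the urokinase that can cut PDGF-D, was higher in TP cells by a fitted 4.14 ± 1.10 (adjusted p 0.0364), and it was well above background in 2 of 4 TM and all 4 TP channels. The other, *Lrp1*, was well above background in 1 TM and 0 TP channels, so no size is given for it.

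Between cell types the pathway genes went both ways. Ito cells had 6 of the 59 higher and 14 lower than endothelial cells, where 18.1% of all probes were called. The probe used for each gene was that of highest variance over these same channels. Such a choice favours calls, so these counts and those above cannot be read as an excess over all probes. Of the 7 ligand processing genes, 3 were lower, among them *Furin* by -0.87 and *Plat*, which cuts PDGF-C, by -0.88. *Sparc*, which binds PDGF-B, was lower by -1.78 ± 0.22, and among the 25 adaptors and effectors 2 were higher and 6 lower, with *Plcg1* at -1.43. Of the 12 negative regulators, *Spry1* was lower by -1.42 and *Ptprj*, a phosphatase that acts on the beta receptor, higher by 1.17. Of the 7 response genes, *Fos* and *Fosb* were higher by 1.73 and 1.71 and *Srf* was lower by -1.14. Tumor cells had 13 of the 59 higher and 42 lower than Kupffer cells, with a median of -0.99 against 0.11 over all probes. The processing genes were lower in 6 of 7 cases, among them *Furin* by -1.44, and *Plat* was higher by 3.50 ± 0.28. *Plau* was lower by a fitted -3.83, of uncertain size because only 2 of 4 TM channels were well above background. *Cspg4*, the NG2 proteoglycan that binds PDGF-A, was higher by 2.36 ± 0.46. Of the negative regulators 10 of 12 were lower, among them *Socs3*, a suppressor of cytokine signaling, by -4.00 and the ubiquitin ligase *Cblb* by -2.60, and *Rasa1*, a Ras GTPase activator, was higher by 1.28. Of the 42 lower genes, 4 were not well above background in any tumor channel. Among these, *Pcsk5*, which is counted with the processing genes, and *A2m* were not well above background in any Kupffer channel either. Their calls thus compare background signals. Since 51.0% of all probes were called in that comparison, these counts are a description, and no test of the lists was made.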

How the data were processed

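The mRNA of 32 samples in 8 groups of 4, named biological replicates in the methods, was read from 16 two-colour Agilent arrays. The authors deposited the scanner intensities of each spot and a table of quantile-normalized intensities, not logged, with a value for each probe in each sample. The log2 of these deposited values was used here. The table followed the quantile-normalized processed signal of the scanner output (r at least 0.9999 in each channel), and the largest difference over the members was 0.24 on the log2 scale. Background correction acts most on dim probes. Groups, dyes and replicate numbers came from the sample labels. A single limma fit (lmFit and eBayes) of all channels to the 8 groups gave 12 contrasts with Benjamini-Hochberg adjustment over 55681 probes, and 0.05 as the limit for a call whatever the fold. The study's own limits, an adjusted p under 0.001 and 4-fold, its t-test, normexp correction (offset 50) with quantile or with loess and Aquantile scaling, the 75th percentile, a filter on dim probes, fits of only the groups compared, the array as a replicate block, and each replicate left out were alternatives. Leaving out 5 channels of the Ito and Kupffer cells was added after the data were seen. For a gene in the pathway and marker lists, the probe with the highest variance was used. All member probes are named, of the lists called genes (1 is not reported here), and the 3 probes most like each member. The members and lists were chosen with earlier results of these data known. The fit was tested on simulated data in which 200 probes were moved by a log2 value of 2. For TME minus control it recovered 77.0, 75.0 and 77.0% of them (endothelial, Ito, Kupffer), with 6, 9 and 12 false calls. The largest member difference between TME and control was -1.31, so this recovery does not hold for changes of the members' size. The files' build is mm9, and promoters are RefSeq's on GRCm38.p6. R 4.3.3, limma 3.58.1, the R package data.table (1.17.8), Python 3.11.15 and matplotlib 3.10.9 were used.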

Additional observations from a re-analysis of the deposited data

Results flagged for a closer look

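In 6 of 64 groups of 4 samples, a member probe's highest or lowest sample lay far from the other 3 for the range of its group, where chance alone gives about 1 group in 20. In Ito controls these were replicate 4 of *Pdgfc*, at 11.18 against 9.88 to 9.92, and of the second *Pdgfb* probe, at 5.70 against 4.79 to 4.90. In TME Kupffer cells it was replicate 4 of *Pdgfra*, at 8.64 against 7.45 to 7.60. In endothelial cells it was replicate 2 of *Pdgfd*, at 4.82 against 3.74 to 3.89 in control and at 6.93 against 4.37 to 4.49 in TME, which are the samples of a single array. In TP cells it was replicate 2 of the second *Pdgfb* probe, at 4.57 against 2.04 to 2.24, where no value was well above background.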

How the results depend on the processing

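Counts of member probes called kept within 1.5 times of the main count in all comparisons under the scanner signal, the 75th percentile, the dim filter and without replicate 2. For TME minus control in endothelial cells, 2 were called, and 4 with normexp and quantile scaling, 4 with normexp, loess and Aquantile scaling, 4 when only the groups compared were fitted, and 0 with the array as a replicate block. Leaving out a replicate gave 0 to 2 there, with 0 without replicate 1, 1 without replicate 3 and 0 without replicate 4. Leaving out a replicate gave 2 to 4 between Ito and endothelial cells and 0 to 1 between TP and TM, with the low and the high value, in turn, without replicate 4. At an adjusted p under 0.001 and 4-fold, 0 were called for the TME in endothelial cells, 0 between Ito and endothelial, 2 between Ito and Kupffer, 1 between endothelial and Kupffer and 3 between tumor and Ito cells. The methods' t-test called 2 between Ito and endothelial cells. Without the 5 channels, 1 was called between TP and TM (*Pdgfrb*, adjusted p 0.0386) and 2 for the TME change of Kupffer against endothelial cells. Apart from the fits with fewer samples or a stricter limit, the cause was not tested. The deviations of samples sharing an array correlated at 0.05 to 0.40 on the endothelial arrays and at -0.64 to 0.23 on the others. The lowest, -0.64 and -0.57, were those of replicate 4 of Ito and Kupffer cells. The numbers thus did not pair the samples by the data outside the endothelial cells. In the endothelial cells all were positive, and the replicate block took away the *Pdgfa* call. In comparisons other than the endothelial TME the replicate block kept the counts within 1.5 times. No direction of a called member reversed. Dim probes limit *Pdgfd* and the second *Pdgfb* probe, for which only bounds hold where a group was at background.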
